A study of Mus musculus with 8 samples.

Results

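Ppbp and 7 other cytokine genes that fibroblasts can express (Cxcl1, Cxcl5, Cxcl12, Ccl2, Ccl7, Il6 and Csf1) were followed in RNA from mouse embryonic stem cells grown on a feeder layer. They were picked by name from the 20461 gene identifiers of the series, all 8 were found, and each had a single entry, so that the choice of the entry with the highest mean FPKM (fragments per kilobase and per 1 M mapped fragments) decided nothing. The set was proposed with results of these libraries known, so the levels and changes below are descriptions and lend no support to the choice. Ppbp heads the set and is given no p-value.

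The cultures were tatsf1 flox/flox CreERT2 embryonic stem cells on MEFs (mouse embryonic fibroblasts) in conventional medium. CreERT2 is a recombinase that tamoxifen activates, and recombination deletes Htatsf1, which encodes an RNA-binding protein of the splicing machinery. The 4 groups were tamoxifen for 48 h, ethanol (the vehicle) for 48 h, tamoxifen for 72 h and ethanol for 72 h, with 2 libraries each and 8 in all. All groups carry the floxed gene, CreERT2 and the feeders, so that an effect of tamoxifen itself and one of the deletion cannot be told apart, and whether feeders carry CreERT2 is not given in the sources used here. Separate cultures behind the libraries of a group are not stated, nor is the number of stem cell lines, so every p-value here weighs a change against a spread that may be technical.

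Chemokines are small secreted proteins that draw leukocytes along a gradient through receptors coupled to G proteins. Those of the CXC class that carry a glutamate-leucine-arginine stretch before their first cysteines, among them CXCL1, CXCL5 and PPBP (CXCL7), act on CXCR2 and attract neutrophils, whereas CXCL12 acts on CXCR4 and retains stem and progenitor cells in their niche. CCL2 and CCL7 act mainly on CCR2 and draw monocytes, IL6 signals through IL6RA and the shared subunit IL6ST, and CSF1 keeps macrophages alive through CSF1R. Many of these genes respond to interleukin 1 and tumour necrosis factor through NF-kB, and cultured fibroblasts are a common source of them. Ppbp is best known from platelets and their precursors, the megakaryocytes. Which cells of these cultures made the transcripts was not measured.

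The implied number of sequenced fragments, read from the confidence interval of each deposited FPKM, summed to 8.99 to 16.8 M per library. Htatsf1 averaged 3.95 ± 0.25 FPKM in tamoxifen and 22.3 ± 0.92 FPKM in ethanol at 48 h, and 4.38 ± 0.36 FPKM in tamoxifen and 22.7 ± 0.02 FPKM in ethanol at 72 h (SD, n = 2 each). The stem cell gene Pou5f1 lay between 472 and 655 FPKM, and Sox2 was listed at 0 in all 8 libraries. The summed FPKM of 34 fibroblast markers lay at 1445 to 1465 in tamoxifen and 1001 to 1053 in ethanol at 48 h, and at 1955 to 2092 in tamoxifen and 1024 to 1059 in ethanol at 72 h. In such mixed cultures more cells of a type and more RNA per cell cannot be told apart.

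Promoters of the gene at the head of the set and of a pair with sites for the inflammatory factors are shown because they differ in the motifs they hold. The sequences are the 250 bases before the start site on the plus strand, from RefSeq on GRCm38.p6. Capitals mark NF-kB motifs in Cxcl1 and Il6, AP-1 motifs (TGANTCA) in Ppbp and Il6, and TATAAA in Ppbp.
Ppbp: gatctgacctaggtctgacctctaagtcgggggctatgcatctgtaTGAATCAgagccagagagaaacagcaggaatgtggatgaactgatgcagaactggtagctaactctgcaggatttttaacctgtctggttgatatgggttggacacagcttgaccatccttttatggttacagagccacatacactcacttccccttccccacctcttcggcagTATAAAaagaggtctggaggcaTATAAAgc
Cxcl1: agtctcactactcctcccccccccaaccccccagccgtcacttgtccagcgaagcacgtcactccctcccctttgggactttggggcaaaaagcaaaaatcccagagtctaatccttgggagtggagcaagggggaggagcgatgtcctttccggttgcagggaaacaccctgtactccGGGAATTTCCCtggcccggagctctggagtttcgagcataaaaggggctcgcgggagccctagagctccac
Il6: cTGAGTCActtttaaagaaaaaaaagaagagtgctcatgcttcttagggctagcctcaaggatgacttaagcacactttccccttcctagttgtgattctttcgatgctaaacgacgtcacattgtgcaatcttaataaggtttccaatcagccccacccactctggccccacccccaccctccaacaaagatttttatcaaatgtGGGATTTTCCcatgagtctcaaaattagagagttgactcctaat

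These windows lie at chr5:90768268-90768517 (Ppbp), chr5:90890995-90891244 (Cxcl1) and chr5:30012864-30013113 (Il6). The Cxcl1 window held a 10-base match to the NF-kB motif from 71 to 62 bases before the start, and a match on the other strand, from 70 to 61 bases, overlaps it. Il6 held an NF-kB match 44 to 35 bases and an AP-1 match 249 to 243 bases before the start. In Ppbp no NF-kB match was found in the window. It held an AP-1 match 204 to 198 bases before the start and TATAAA at 30 to 25 and at 8 to 3 bases. Among the other genes with an entry in the table, Csf1 held an NF-kB match, on the strand opposite to the gene's, 154 to 145 bases before the start, and Cxcl12 held none of the 3 motifs. Of 32536 promoter windows of the same length, searched on both strands, 3.92% held the NF-kB motif, 6.73% AP-1 and 12.3% TATAAA. The AP-1 motif reads the same on both strands, and a match is a string of letters, not a bound site. Cxcl5, Ccl2 and Ccl7 had no entry.

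By mean FPKM, a level per length, the order was Ccl2, Csf1, Ccl7, Cxcl5, Cxcl12, Cxcl1, Ppbp and Il6. Ccl2 lay above Csf1 in 8 of 8 libraries, Ccl7 above Cxcl5 in 8 and Cxcl1 above Ppbp in 8. Neighbours that traded places were Csf1 and Ccl7 (Csf1 higher in 5 libraries), Cxcl5 and Cxcl12 (Cxcl5 higher in 4), Cxcl12 and Cxcl1 (Cxcl12 higher in 7) and Ppbp and Il6 (Ppbp higher in 6).

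**Figure D1:**
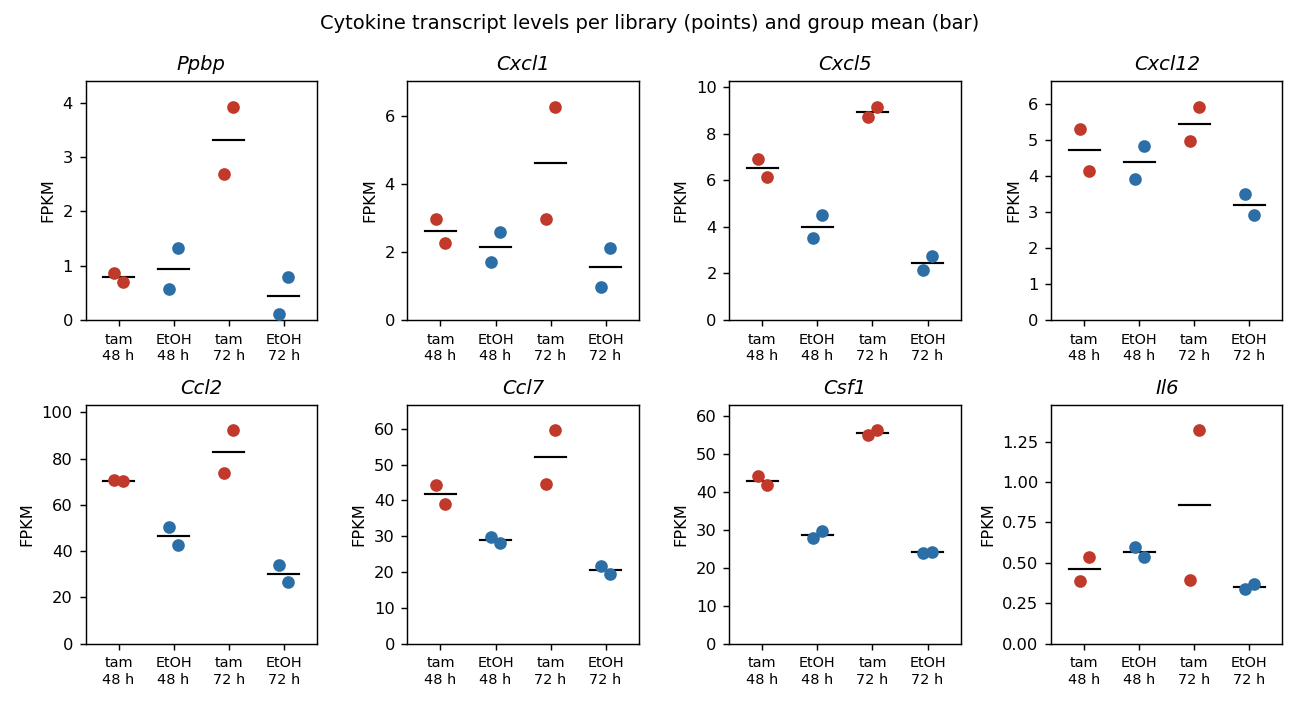
Level (FPKM, vertical axis from 0, scaled per gene) of the 8 cytokine genes in each library (points, 2 per group) with group means (bars), tamoxifen (tam, red) and ethanol (EtOH, blue) at 48 h and 72 h. At 72 h the tamoxifen points lie above the ethanol points in every panel, and at 48 h those of Ppbp, Cxcl1 and Cxcl12 overlap and those of Il6 lie just below.

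At 72 h tamoxifen cultures held more mRNA of the neutrophil attractants. Ppbp, on chromosome 5 from 91197544 to 91199086 of mm9, stood at 2.69 and 3.93 FPKM in tamoxifen, against 0.107 and 0.783 FPKM in ethanol. At 48 h its values were 0.874 and 0.696 FPKM in tamoxifen, against 0.568 and 1.32 FPKM in ethanol. The tamoxifen 72 h libraries thus held the highest Ppbp values of the series, while at 48 h the tamoxifen values lay between the ethanol values. The numbers of fragments are small: 39 and 44 in tamoxifen and 1 and 10 in ethanol at 72 h, and 7 and 8 in tamoxifen and 6 and 16 in ethanol at 48 h. The fitted log2 change of FPKM + 1 was 1.60 ± 0.24 at 72 h and -0.10 ± 0.24 at 48 h (SE). With a pseudocount of 0.1 in place of 1 the 72 h change was 2.97, with 5 it was 0.61, and without ethanol 72 h replicate 1, the library with 1 fragment, it was 1.26. Without ethanol 48 h replicate 2 the 48 h change was 0.18. In the authors' deposited table Ppbp was 6.97-fold higher in tamoxifen at 72 h (log2 2.80, from mean scaled counts of 37.0 in tamoxifen and 5.30 in ethanol) and had a log2 change of -0.05 at 48 h.

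Cxcl5, on chromosome 5 from 91188325 to 91190651 of mm9, showed a smaller fold on a firmer base. It stood at 8.73 and 9.16 FPKM in tamoxifen, against 2.17 and 2.73 FPKM in ethanol, at 72 h. The 48 h values were 6.91 and 6.13 FPKM in tamoxifen, against 3.51 and 4.51 FPKM in ethanol. The groups did not overlap at either time, and the values rested on 28 to 169 fragments. Cxcl5 rose at both times, by 1.53 ± 0.12 at 72 h (SE, limma, adjusted p = 1.01e-05) and by 0.59 ± 0.12 at 48 h (SE, adjusted p = 0.0105). The 48 h call was lost without tamoxifen 48 h replicate 1 (adjusted p = 0.0692) and without ethanol 48 h replicate 1 (adjusted p = 0.0852).

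Cxcl1, on chromosome 5 from 91320271 to 91322141 of mm9, stood at 2.97 and 6.28 FPKM in tamoxifen 72 h, against 0.981 and 2.13 FPKM in ethanol 72 h. At 48 h the values were 2.98 and 2.25 FPKM in tamoxifen, against 1.70 and 2.58 FPKM in ethanol. The 72 h groups were apart although their replicates spread widely, and the 48 h groups overlapped. Cxcl1 rose at 72 h (log2 change 1.11 ± 0.28 SE, adjusted p = 0.0105) and did not pass at 48 h (0.21 ± 0.28 SE, adjusted p = 0.671). Without tamoxifen 72 h replicate 2 the 72 h change was 0.67 (adjusted p = 0.0782) and without ethanol 72 h replicate 1 it was 0.78 (adjusted p = 0.0870). The fragments behind Cxcl1 numbered 9 to 68.

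Cxcl12, on chromosome 6 from 117118553 to 117131386 of mm9, moved least of the tested genes of the set at 72 h. It stood at 4.97 and 5.92 FPKM in tamoxifen, against 3.49 and 2.92 FPKM in ethanol, at 72 h. At 48 h it stood at 5.30 and 4.13 FPKM in tamoxifen, against 3.93 and 4.83 FPKM in ethanol, so that only the 72 h groups were apart. The 72 h change passed (0.62 ± 0.13 SE, adjusted p = 0.00471) and the 48 h change did not (0.08 ± 0.13 SE, adjusted p = 0.722).

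The monocyte attractants Ccl2 and Ccl7 were the most strongly expressed chemokines of the set. Ccl2, on chromosome 11 from 81849079 to 81850954 of mm9, stood at 73.6 and 92.3 FPKM in tamoxifen 72 h, against 33.9 and 26.7 FPKM in ethanol 72 h. At 48 h it stood at 70.7 and 70.4 FPKM in tamoxifen, against 50.4 and 42.9 FPKM in ethanol. Ccl7, on chromosome 11 from 81859214 to 81861025, stood at 44.6 and 59.6 FPKM in tamoxifen 72 h, against 21.6 and 19.6 FPKM in ethanol 72 h. Its 48 h values were 44.4 and 39.0 FPKM in tamoxifen, against 29.8 and 28.2 FPKM in ethanol. For both genes every tamoxifen library lay above every ethanol library of either time. Ccl2 rose by 1.42 ± 0.12 at 72 h (SE, adjusted p = 2.07e-05) and by 0.59 ± 0.12 at 48 h (SE, adjusted p = 0.0126). Ccl7 rose by 1.28 ± 0.12 at 72 h (SE, adjusted p = 2.56e-05) and by 0.51 ± 0.12 at 48 h (SE, adjusted p = 0.0190). The 48 h call of Ccl2 was lost without tamoxifen 48 h replicate 1, tamoxifen 48 h replicate 2 or ethanol 48 h replicate 2 (adjusted p up to 0.114), and that of Ccl7 without tamoxifen 48 h replicate 1 or either ethanol 48 h library (up to 0.126). Ccl7 was between 55.4% and 73.4% of Ccl2 in every library, whereas Ppbp ran from 4.95% to 42.8% of Cxcl5.

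Csf1, on chromosome 3 from 107543966 to 107563387 of mm9, had close replicates. It stood at 55.0 and 56.3 FPKM in tamoxifen 72 h, against 24.0 and 24.2 FPKM in ethanol 72 h. In the 48 h cultures Csf1 stood at 44.1 and 41.9 FPKM in tamoxifen, against 27.8 and 29.7 FPKM in ethanol. Its values rested on 1015 to 3927 fragments and its groups were apart at both times. Csf1 rose by 1.18 ± 0.06 at 72 h (SE, adjusted p = 9e-07) and by 0.56 ± 0.06 at 48 h (SE, adjusted p = 0.000429), and both calls held without any single library.

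Il6, on chromosome 5 from 30339701 to 30346508 of mm9, was barely detected. It stood at 0.393 and 1.32 FPKM in tamoxifen 72 h, against 0.340 and 0.367 FPKM in ethanol 72 h. At 48 h it stood at 0.391 and 0.536 FPKM in tamoxifen, against 0.596 and 0.539 FPKM in ethanol. A single library, tamoxifen 72 h replicate 2 with 18 fragments, reached 1 FPKM, and the others held 4 to 8 fragments, so Il6 was not tested. The authors' deposited table gives log2 changes of 1.75 at 72 h and -0.09 at 48 h, from mean scaled counts of 15.9 in tamoxifen and 4.73 in ethanol, and of 6.86 in tamoxifen and 7.30 in ethanol.

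Of the 8 genes, 7 passed the filter of at least 1 FPKM in at least 2 of the 8 libraries. Ppbp passed it through its tamoxifen 72 h libraries, so counts are given over the other 6. At 72 h 6 of these 6 rose, in a comparison where 20.1% of the 11867 genes tested were called higher and 18.5% lower, and their libraries did not overlap, as was so in this direction for 35.2% of all genes. At 48 h 4 of 6 rose (Cxcl5, Ccl2, Ccl7 and Csf1), beside 7.88% of all genes called higher and 4.47% lower, and for the same 4 the libraries did not overlap (32.7% of all genes). No fitted change of the 6 was negative at either time. The median log2 change was 1.23 at 72 h and 0.53 at 48 h, beside -0.01 and 0.02 over all genes tested. Without tamoxifen 48 h replicate 1 the 48 h count was 1, and without ethanol 48 h replicate 1 or 2 it was 2.

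The tamoxifen change was larger at 72 h than at 48 h for 4 of the 6 genes, beside 2% of all genes tested with a larger change and 1.45% with a smaller one. The difference of the log2 changes, 72 h minus 48 h, was 0.94 ± 0.17 for Cxcl5 (SE, limma, adjusted p = 0.0233), 0.83 ± 0.18 for Ccl2 (SE, adjusted p = 0.0342), 0.78 ± 0.16 for Ccl7 (SE, adjusted p = 0.0344) and 0.61 ± 0.08 for Csf1 (SE, adjusted p = 0.00727). For Cxcl1 (0.90 ± 0.40 SE, adjusted p = 0.229) and Cxcl12 (0.53 ± 0.19 SE, adjusted p = 0.145) it did not pass. Ppbp had a difference of 1.70 ± 0.34 (SE). The call of Csf1 held without any single library. That of Cxcl5 was lost without tamoxifen 48 h replicate 2, ethanol 48 h replicate 2, tamoxifen 72 h replicate 2 or ethanol 72 h replicate 1 (adjusted p up to 0.0818). That of Ccl2 was lost without any of the 48 h libraries, tamoxifen 72 h replicate 2 or ethanol 72 h replicate 2 (up to 0.124), and that of Ccl7 without any library but tamoxifen 72 h replicate 1 (up to 0.121).

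Between the times most of the 6 genes fell in ethanol, and in tamoxifen all 6 fitted changes were above 0. In ethanol 5 of the 6 were lower at 72 h than at 48 h, beside 19.2% of all genes called lower and 38% called higher. The log2 changes of the later against the earlier ethanol cultures were -0.61 for Ccl2 (adjusted p = 0.00188), -0.53 for Cxcl5 (adjusted p = 0.00315), -0.48 for Ccl7 (adjusted p = 0.00544), -0.35 for Cxcl12 (adjusted p = 0.0415) and -0.25 for Csf1 (adjusted p = 0.00442), and Cxcl1 had -0.32 (adjusted p = 0.347). The call of Cxcl12 was lost without ethanol 48 h replicate 2 (adjusted p = 0.259) or ethanol 72 h replicate 2 (adjusted p = 0.217). In tamoxifen 3 of the 6 rose between the times, beside 37.5% of all genes called higher and 19.6% lower: Cxcl5 (0.41, adjusted p = 0.0143), Csf1 (0.36, adjusted p = 0.000452) and Ccl7 (0.30, adjusted p = 0.0458). The median of all genes tested was 0.11 for both time contrasts, and a median-ratio scaling moved it by -0.11 in ethanol and -0.10 in tamoxifen. That scaling called 3343 of all genes higher and 3371 lower in ethanol, where without it 4506 were higher and 2278 lower. In tamoxifen it called 3316 higher and 3311 lower, where without it 4446 were higher and 2328 lower. Quantile normalization called 3073 higher and 3226 lower in ethanol, and 3051 higher and 3201 lower in tamoxifen. With median-ratio scaling Csf1 alone of the 3 passed in tamoxifen. The call of Cxcl5 was lost without tamoxifen 48 h replicate 2 or tamoxifen 72 h replicate 2 (adjusted p up to 0.0864), and that of Ccl7 without any library but tamoxifen 48 h replicate 1 and tamoxifen 72 h replicate 1 (up to 0.397). Without tamoxifen 48 h replicate 2 or tamoxifen 72 h replicate 2 the count in tamoxifen was 1, and without tamoxifen 72 h replicate 1 it was 5. Between the times in ethanol 6 of the 33 fibroblast markers tested rose and 10 fell (median 0.03), and 1 of 10 macrophage and leukocyte markers rose and 6 fell (median -0.37). In tamoxifen 27 fibroblast markers rose and 1 fell (median 0.44), and 3 macrophage and leukocyte markers rose and 1 fell (median 0.11). Their part in the time contrasts was not tested. The names of the deposited tables carry a different number for the 48 h and the 72 h libraries. The labels do not say what it stands for. If it marks a batch, time and that batch cannot be told apart. The 2 time contrasts and the 2 treatment contrasts use the same 8 libraries.

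**Figure D2:**
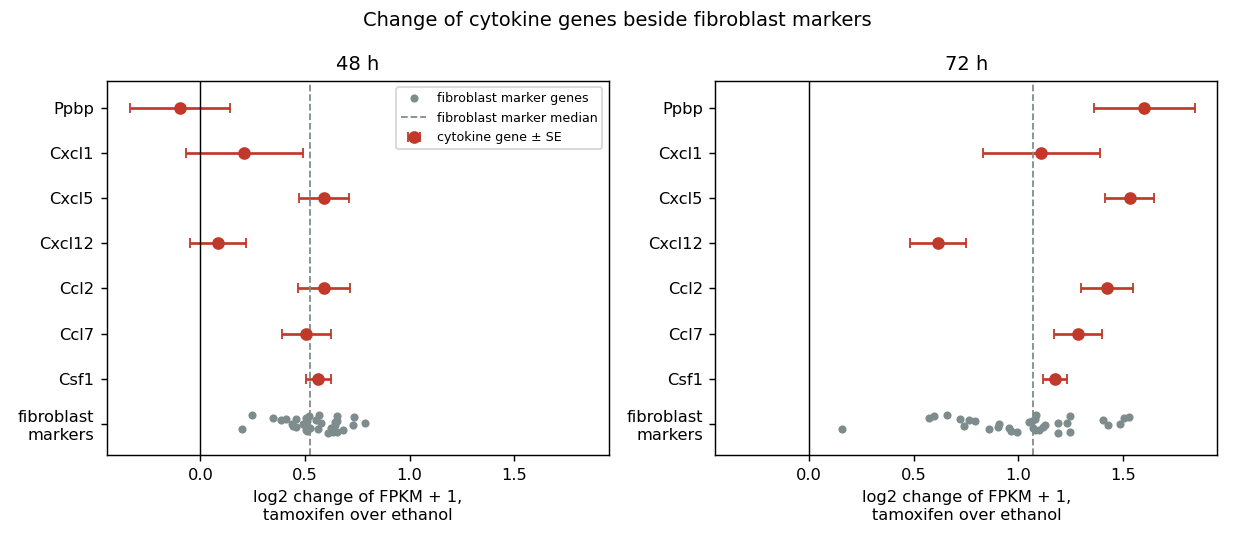
Log2 change of FPKM + 1, tamoxifen over ethanol (horizontal axis), at 48 h (left) and 72 h (right) for 7 cytokine genes (red, ± SE of the fit) and, in the bottom row, for 33 fibroblast markers (grey points, spread vertically for sight, with their median as a dashed line). At 72 h Cxcl5 (1.53 ± 0.12) lies level with the highest marker (1.53) and Cxcl12 beyond 3 markers, while at 48 h Ppbp and Cxcl12 lie below all 33.

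Fibroblast markers moved in the same libraries. Of 33 tested, 32 rose at 72 h (median log2 change 1.07, from 0.16 to 1.53) and 31 at 48 h (median 0.53, from 0.20 to 0.79), and none fell at either time, with 0 below 0 at an unadjusted p under 0.05. Over all genes tested 20.1% were called higher and 18.5% lower at 72 h, and 7.88% and 4.47% at 48 h. Type I collagen (Col1a1) averaged 123 ± 2.27 FPKM in tamoxifen and 53.3 ± 2.09 FPKM in ethanol at 72 h (SD, n = 2 each). At 72 h the change of Cxcl5 (1.53 ± 0.12 SE) lay level with the highest marker, Twist2 (1.53). That of Ppbp was 1.60 with all libraries and 1.26 without ethanol 72 h replicate 1. The change of Ccl2 exceeded those of 29 markers, Ccl7 28, Csf1 23, Cxcl1 21 and Cxcl12 3. At 48 h Cxcl5 and Ccl2 exceeded 21 each, Csf1 19, Ccl7 12, Cxcl1 1, and Cxcl12 and Ppbp none. The pseudocount of 1 understates changes of low genes more than those of high markers such as Col1a1. These ranks, and the values relative to the markers, may depend on it.

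Set against the mean log2 level of the fibroblast markers in the same library, most genes of the series were lower in tamoxifen (96.7% at 72 h and 89.1% at 48 h) and few were higher (0.497% and 0.345%). The median change was -1.03 and -0.52 over all genes, and 0.04 and -0.01 over the markers. A gene that did not rise with the markers is lower here by construction, so these shares do not mark the cytokine genes as exceptional. On this scale 3 of the 6 cytokine genes were higher at 72 h: Cxcl5 by 0.51 (adjusted p = 0.000696), Ccl2 by 0.40 (adjusted p = 0.00102) and Ccl7 by 0.26 (adjusted p = 0.0163). Because most genes were called on this scale, the adjustment hardly raised the limma p-values (for Ccl7 from 0.0157). The adjusted p-values of this paragraph are in effect unadjusted. Csf1 (0.15, adjusted p = 0.0851) and Cxcl1 (0.09, adjusted p = 0.697) did not pass, and Cxcl12 fell (-0.41, adjusted p = 0.00637). Ppbp had 0.58. At 48 h Cxcl12 fell (-0.45, adjusted p = 0.00372), and the other 5 lay between -0.33 and 0.05 and did not pass. Without ethanol 72 h replicate 2 the count of higher genes at 72 h was 1. The count of lower genes was 0 at 72 h without tamoxifen 72 h replicate 1 or ethanol 72 h replicate 1, and 0 at 48 h without tamoxifen 48 h replicate 2 or ethanol 48 h replicate 2.

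Markers of other cells were also looked at beside the same results. The summed FPKM of 15 macrophage and leukocyte markers lay at 66.2 to 73.9 in tamoxifen and 31.2 to 32.5 in ethanol at 72 h, and at 49.4 to 55.3 in tamoxifen and 34.6 to 37.9 in ethanol at 48 h. Of 10 tested, 9 rose and 0 fell at 72 h and 5 rose and 0 fell at 48 h, with 0 lower at an unadjusted p under 0.05 at either time. Beside these, 20.1% of all genes were called higher and 18.5% lower at 72 h, and 7.88% and 4.47% at 48 h. Lyz2, the lysozyme of myeloid cells, averaged 27.9 ± 3.99 FPKM in tamoxifen and 10.6 ± 0.82 FPKM in ethanol at 72 h, Emr1 (F4/80) averaged 2.00 ± 0.34 FPKM in tamoxifen and 0.569 ± 0.07 FPKM in ethanol (SD, n = 2 each), and the pan-leukocyte gene Ptprc did not exceed 0.246 FPKM in any library. Laptm5, at 10.1 to 25.5 FPKM over the 8 libraries, rose at 72 h by 0.79 (limma, adjusted p = 6.50e-05). Between the times in ethanol Laptm5 rose (0.34), while Lyz2 (-0.41) and Emr1 (-0.84) fell. That rise of Laptm5 was not called with median-ratio scaling or quantile normalization. Of 12 megakaryocyte and platelet markers 2 were tested, and Gp1ba, Gp6 and Gp9 were listed at 0 in all 8 libraries. The list summed to 11.1 to 12.1 FPKM in tamoxifen and 4.58 to 6.25 FPKM in ethanol at 72 h, and to 8.38 to 9.51 FPKM in tamoxifen and 6.14 to 6.19 FPKM in ethanol at 48 h. Its tested genes were Itgb3, which averaged 5.07 ± 0.28 FPKM in tamoxifen and 2.71 ± 0.24 FPKM in ethanol at 72 h (SD, n = 2 each), and Pf4, described below. The 15 stem cell markers summed to 3584 to 4031 FPKM in tamoxifen and 4479 to 4628 FPKM in ethanol at 72 h, and to 3366 to 3468 FPKM in tamoxifen and 3505 to 3582 FPKM in ethanol at 48 h. Of 14 tested, 0 rose and 7 fell at 72 h (median log2 change -0.28). At 48 h 0 rose and 1 fell, Tdgf1 (median -0.003), so the lower 48 h sum is not a fall across the list. The 9 endothelial markers summed to 20.2 to 21.3 FPKM in tamoxifen and 29.7 to 30.5 FPKM in ethanol at 72 h, and to 16.2 to 17.7 FPKM in tamoxifen and 15.6 to 19.7 FPKM in ethanol at 48 h. Of 5 tested, 1 rose at 72 h (Tek, log2 change 0.67) and 2 fell (Vwf, -0.54, and Egfl7, -0.65). At 48 h 1 rose (Tek, 0.50) and 0 fell. The part of these cells in the cytokine levels was not tested.

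**Figure D3:**
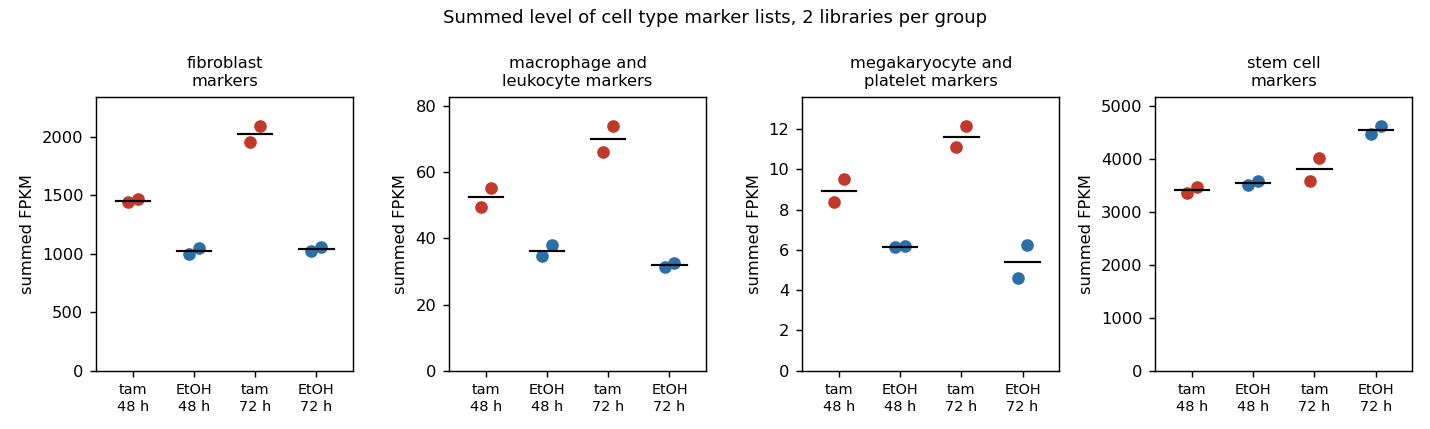
Summed FPKM (vertical axis from 0, scaled per panel) of the fibroblast, macrophage and leukocyte, megakaryocyte and platelet, and stem cell marker lists in each library (points) with group means (bars), tamoxifen (red) and ethanol (blue) at 48 h and 72 h. The sums of the first 3 lists are higher in both tamoxifen libraries than in both ethanol libraries at each time, and the stem cell sum is lower. At 48 h 1 of 14 tested stem cell markers was called lower.

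Several of these genes are neighbours. On chromosome 5 of mm9 Ppbp starts 6.89 kb after the end of Cxcl5 and Pf4 2.37 kb after the end of Ppbp. Of the chemokine genes looked at, Cxcl3, Cxcl1 and Cxcl2 follow in that order. On chromosome 11 Ccl7 starts 8.26 kb after the end of Ccl2, and of those looked at Ccl11, Ccl12, Ccl8 and Ccl1 follow. Genes outside the lists used here may lie between them. Pf4, which encodes the other main chemokine of platelets, averaged 4.75 ± 0.85 FPKM in tamoxifen and 1.27 ± 0.78 FPKM in ethanol at 72 h (SD, n = 2 each). Its log2 change of 1.38 ± 0.21 passed (SE, adjusted p = 0.000661). The 48 h means of Pf4 were 3.21 ± 0.75 FPKM in tamoxifen and 2.15 ± 0.11 FPKM in ethanol (log2 change 0.41 ± 0.21 SE, adjusted p = 0.231). Pf4 thus passed at 72 h only, although the difference of its changes was not called (adjusted p = 0.103). In the same stretch Cxcl3 did not exceed 8 fragments and Cxcl2 14 fragments in any library. Ccl11 (eotaxin) averaged 3.59 ± 1.43 FPKM in tamoxifen and 0.832 ± 0.40 FPKM in ethanol at 72 h (1.31 ± 0.21 SE, adjusted p = 0.00101), Ccl8 averaged 1.78 ± 0.45 FPKM in tamoxifen and 0.279 ± 0.14 FPKM in ethanol (1.11 ± 0.14 SE, adjusted p = 0.000202), and Ccl1 was listed at 0 in all groups.

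**Figure D4:**
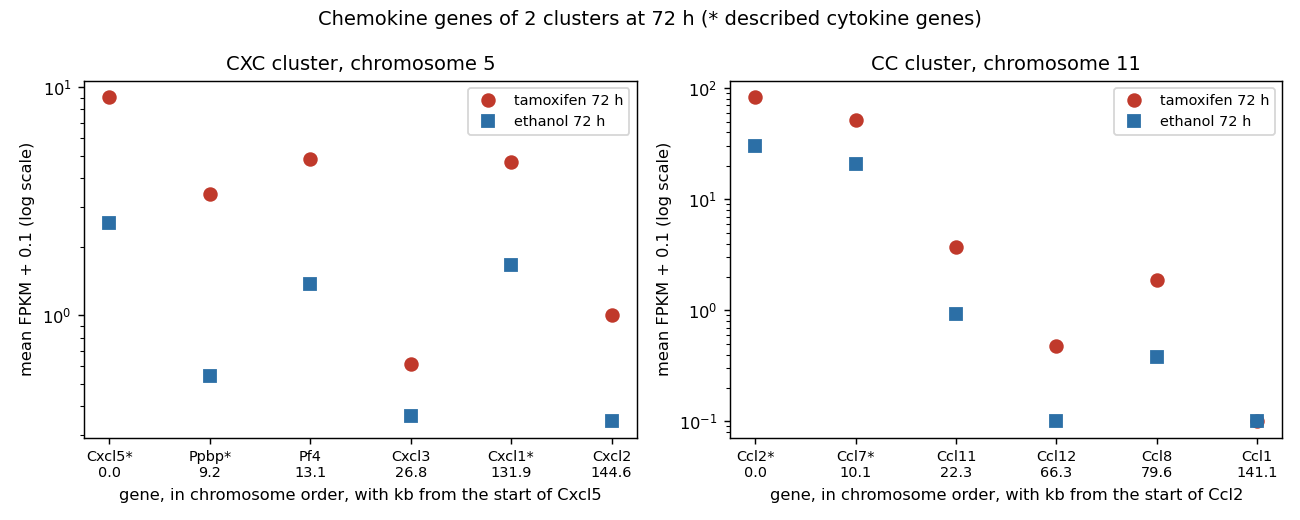
Mean FPKM + 0.1 (log scale) at 72 h of the chemokine genes looked at in a CXC cluster on chromosome 5 (left) and a CC cluster on chromosome 11 (right), in chromosome order with the distance in kb from the first gene, tamoxifen (circles) and ethanol (squares), 2 libraries each. Mean levels differ widely along each cluster, and the tamoxifen mean is the higher for every gene but Ccl1, which is at 0 in both.

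The rest of the pathway was described from lists of its ligands, receptors and regulators. Of 10 other CXC chemokines 3 were tested: Pf4 and Cxcl14 rose at 72 h, and Cxcl16 did not pass (0.06, adjusted p = 0.750). Cxcl14 averaged 4.64 ± 0.85 FPKM in tamoxifen and 2.43 ± 0.27 FPKM in ethanol at 72 h (SD, n = 2 each). Of 19 other CC, C and CX3C chemokines 6 were tested, with 3 higher (Ccl8, Ccl9 and Ccl11) and 1 lower (Ccl25) at 72 h, where 20.1% of all genes tested were called higher and 18.5% lower. The median log2 change of the tested genes at 72 h was 0.71 in the first list and 0.44 in the second, beside -0.01 over all genes.

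Receptors of these cytokines were described as well. Cxcr2, the receptor of PPBP, CXCL1 and CXCL5, averaged 5.21 FPKM in tamoxifen and 4.63 FPKM in ethanol at 72 h (log2 change 0.18, adjusted p = 0.473). Cxcr1 and Ccr2 were listed at 0 in 7 of the 8 libraries. Cxcr4 lay between 0.505 and 1.34 FPKM (72 h change 0.38) and Cxcr7, a scavenger of CXCL12, between 0.797 and 2.27 FPKM (-0.49, adjusted p = 0.0583). Cxcr4 passed the filter only with its tamoxifen 72 h libraries counted, so it is given no p-value. Il6st lay between 10.98 and 17.9 FPKM and Il6ra between 0.218 and 0.478 FPKM. Csf1r averaged 0.545 FPKM in tamoxifen and 0.178 FPKM in ethanol at 72 h, and 0.550 FPKM in tamoxifen and 0.275 FPKM in ethanol at 48 h. Its groups did not overlap at either time, as was so in this direction for 35.2% of all genes tested at 72 h and 32.7% at 48 h. Csf1r lay under the filter and was not tested. Of 4 chemokine receptors tested 0 were called higher and 1 lower at 72 h, beside 20.1% and 18.5% of all genes. The 1 was Ccrl1, a scavenger of CC chemokines. It passed the filter through its ethanol 72 h libraries alone, where it is high, so it is given no p-value and its call is no support. Ccrl1 averaged 0.888 ± 0.03 FPKM in tamoxifen and 1.82 ± 0.06 FPKM in ethanol at 72 h (SD, n = 2 each, log2 change -0.58). That call was lost with a pseudocount of 0.1.

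In the interleukin 6 family 4 of 9 tested genes rose and 0 fell at 72 h (5 higher and 2 lower at an unadjusted p under 0.05), beside 20.1% of all genes called higher and 18.5% lower. Among the 4, Il11 passed the filter only with a tamoxifen 72 h library counted, so its call is no support. Lif, the cytokine that keeps mouse stem cells undifferentiated, averaged 6.92 ± 0.28 FPKM in tamoxifen and 3.68 ± 0.21 FPKM in ethanol at 72 h (log2 change 0.76 ± 0.09 SE, adjusted p = 9.95e-05). At 48 h it averaged 4.42 ± 0.11 FPKM in tamoxifen and 2.44 ± 0.02 FPKM in ethanol (0.66 ± 0.09 SE, adjusted p = 0.00141). Osmr, the receptor chain for oncostatin M, averaged 5.10 ± 0.89 FPKM in tamoxifen and 2.66 ± 0.04 FPKM in ethanol at 72 h, and Il11ra1, the interleukin 11 receptor chain, averaged 4.54 ± 0.62 FPKM in tamoxifen and 3.13 ± 0.23 FPKM in ethanol (SD, n = 2 each). The call of Il11ra1 (log2 change 0.42, adjusted p = 0.0155) was lost without tamoxifen 72 h replicate 2 or ethanol 72 h replicate 2 (adjusted p up to 0.115). Among the other colony stimulating factors and their receptors 1 of 3 tested genes rose at 72 h, Kitl (0.40, adjusted p = 0.0161), whose call was lost without tamoxifen 72 h replicate 1 or ethanol 72 h replicate 1 (adjusted p up to 0.122), while Kit and Csf2ra did not pass.

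Of 10 tested receptors and ligands of the interleukin 1 and TNF families 6 rose and 0 fell at 72 h, with 0 lower at an unadjusted p under 0.05, and 4 rose at 48 h, beside 20.1% of all genes called higher at 72 h and 7.88% at 48 h. Il1rl1, the interleukin 33 receptor, averaged 25.0 ± 1.55 FPKM in tamoxifen and 4.73 ± 0.29 FPKM in ethanol at 72 h (log2 change 2.18 ± 0.08 SE, adjusted p = 1.56e-07). Its partner chain Il1rap averaged 3.39 ± 0.05 FPKM in tamoxifen and 1.62 ± 0.07 FPKM in ethanol (0.74 ± 0.09 SE, adjusted p = 0.000156), and Il1r1, the interleukin 1 receptor, averaged 1.93 ± 0.04 FPKM in tamoxifen and 0.706 ± 0.004 FPKM in ethanol (0.78 ± 0.12 SE, adjusted p = 0.000683). Of 20 tested NF-kB factors, regulators and responding genes 7 rose and 3 fell (Bcl3, Birc2 and Ikbkb) at 72 h, beside 20.1% and 18.5% of all genes. Among the 7, Tnfaip3 passed the filter only with its tamoxifen 72 h libraries counted, so its call is no support. The 3 of smallest p at 72 h were responding genes: Ptgs2, which encodes cyclooxygenase 2 (1.28 ± 0.07 SE, adjusted p = 9.71e-07), and the adhesion molecules Icam1 (0.87 ± 0.07 SE, adjusted p = 1.20e-05) and Vcam1 (1.099 ± 0.11 SE, adjusted p = 4.90e-05). The median log2 change at 72 h was 0.37 for the interleukin 1 and TNF list and 0.04 for the NF-kB list.

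Genes outside the set were ranked by how their levels ran with Ppbp over the 8 libraries, by Pearson's r of log2(FPKM + 1). Genes named Gm, Mir or Snor or ending in Rik were left out of this ranking and may run as close. The first of the rest were Cxx1c (0.97), Sap30bp (0.96), Tmem167b (0.96), Rnd3 (0.95) and Strada (0.95). In the set itself Cxcl1 was nearest (0.91), followed by Cxcl5 (0.82), Csf1 (0.79), Ccl7 (0.75), Cxcl12 (0.73) and Ccl2 (0.66). Libraries of a group share their treatment and time, so these values order the genes and do not test them. Cxx1c stood at 1.32 and 1.396 FPKM in tamoxifen 72 h, against 0.459 and 0.660 FPKM in ethanol 72 h, and at 0.634 and 0.794 FPKM in tamoxifen 48 h, against 0.717 and 0.923 FPKM in ethanol 48 h. It passed the filter through its tamoxifen 72 h libraries alone, where Ppbp is also high, so its first place is no support.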

How the data were processed

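Bead-enriched mRNA was sequenced in 100-base paired ends, per the labels' protocols. FPKM values per gene were deposited by the authors for each library with a confidence interval. The submitters' processing notes name mm9, Cufflinks 1.3.0, TopHat 1.4.1, BWA 0.6.1, DESeq and HTSeq. The authors also deposited tables whose group means are a size-factor-scaled count signal, with their own log2 fold changes (a ratio of the groups on a log scale) and p-values. Their log2 values run ethanol over tamoxifen and were turned here.

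Of 20789 entries 209 with a status other than OK were left out, and 20388 genes were kept, of which 11867 were tested. FPKM was taken as log2(FPKM + 1), which understates changes of low genes. One fit over all 8 libraries with a mean per group used limma 3.58.1 (R 4.3.3, eBayes with trend, 4 residual degrees of freedom, two-sided). Within each contrast Benjamini-Hochberg adjustment covered all tested genes, and an adjusted p under 0.05 was a call. The fit was also run on simulated counts, whose spread beyond counting error was smaller than that between the libraries here. That run does not measure how the fit performs on these data.

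Fragments were read from the intervals taken as 2 SD of a Poisson count. For values up to 20 fragments, 97.8% to 98.1% were whole within 0.02 per library, and they cover counting error only. Within groups, libraries differed by 2.46 to 5.67 times the counting variance, so none was deposited in duplicate. Gene starts in the files count from 0 and 1 was added.

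The members and lists were chosen with earlier results of these data known. One item is not reported here. Named genes were the 8 members, their receptors, Pf4, the 3 genes of smallest p at 72 h per list and the 5 most like Ppbp. The last were taken outside the members, leaving out genes named Gm, Mir or Snor or ending in Rik. Alternatives changed pseudocount, filter, scaling, trend, replicate block and single libraries.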

Additional observations from a re-analysis of the deposited data

Results flagged for a closer look

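A difference between the tamoxifen change at 72 h and that at 48 h, tested as one contrast in limma, passed for 17 of the genes named. Over all genes tested 2% had a larger change at 72 h and 1.45% a smaller one. Genes of the pathway and marker lists were named for small p at 72 h, which is a part of this contrast. Their calls were favoured by that choice and lend no support. Values are log2 changes at 72 h minus those at 48 h. Among the cytokine genes these were Cxcl5 (0.94), Ccl2 (0.83), Ccl7 (0.78) and Csf1 (0.61). In the pathway lists they were Ccl8 (1.05), Il1rl1 (1.399), Icam1 (0.48), Vcam1 (0.69) and Ptgs2 (0.67). In the marker lists they were Col1a1 (0.58), Timp2 (0.85), Acta2 (1.00), Emr1 (0.76) and Lyz2 (0.82), and below 0 the stem cell genes Nanog (-0.40) and Zfp42 (-0.42). Sap30bp (0.53) passed as well, but was named for its likeness to Ppbp over the same libraries. The calls of Csf1, Il1rl1, Ptgs2, Col1a1, Timp2 and Acta2 held without any single library.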

How the results depend on the processing

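No called change reversed. The change of Ppbp at 48 h, which has no test, was -0.10 and turned to 0.18 without ethanol 48 h replicate 2. The 72 h count of 6 rises and the 5 falls in ethanol stayed within 1.5 times under all alternatives run. The 48 h count of 4 rises was 2 with no filter on low values and 1 to 4 without single libraries. The count of 4 larger changes at 72 h was 1 with no filter, 2 with no trend, 2 with the replicate block and 1 to 4 without single libraries. The 3 rises between times in tamoxifen were 1 with median-ratio scaling and 1 to 5 without single libraries. Relative to the fibroblast markers, the count of lower genes, 1 at each time, was 2 at both with a pseudocount of 5, and without single libraries 0 to 2 at 48 h and 0 to 1 at 72 h. The 3 higher genes at 72 h were 1 to 3. The causes of these moves were not tested. Over all genes tested, the 935 rises at 48 h were 319 to 563 without single 48 h libraries, and the 531 falls were 121 to 235 and with no filter 308. At 72 h the 2192 falls were 1460 without ethanol replicate 2. The 237 larger changes at 72 h were 31 with no filter, 148 with no trend and 37 to 98 without any single library but tamoxifen 72 h replicate 1. The 172 smaller ones were 13 with no filter, 78 with no trend, 108 with the replicate block and 13 to 100 without single libraries. Relative to the fibroblast markers, the 41 higher genes at 48 h were 69 with a pseudocount of 0.1 and 81 without tamoxifen 48 h replicate 2, and the 59 at 72 h were 94 with that pseudocount.

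Same-numbered libraries did not pair: the correlations of their deviations ran from -0.28 to 0.15 over 6 pairs of groups, 3 of them above 0. The replicate block ended the differences of Ccl2 (adjusted p = 0.0535) and Ccl7 (adjusted p = 0.0569), the ethanol fall of Cxcl12 (adjusted p = 0.0559) and the tamoxifen rise of Ccl7 between times (adjusted p = 0.0630). It also ended the differences of Emr1 and Nanog, the 48 h calls of Ccl11 and Tdgf1 and the 72 h call of Strada. Low counts limit Ppbp and Il6.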
